A study of Rattus norvegicus with 218 samples.

Results

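The samples described here are neurons of the left and the right dorsal motor nucleus of the vagus (DMV) of rats that had undergone remote ischemic preconditioning (RIPC), and the question is whether both sides of the nucleus carried the same transcripts. They were chosen by their label for treatment and side. Where a sample had been run again (2 samples), both runs entered as their mean, and a gene with a Ct in either run counted as detected. A threshold cycle (Ct) in at least 42 assays, which is 25% of the panel, was required of a sample. Of 53 measured columns this left 51 samples, of which 43 were kept, out of 186 kept samples in the whole series of 213. The 43 samples were 24 from the left (10 pools and 14 single neurons, 51 cells) and 19 from the right (8 pools and 11 single neurons, 43 cells).

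All animals were male Sprague Dawley rats. RIPC and sham animals were both anesthetized with ketamine and xylazine. For RIPC a thread closed the femoral vessels on both sides for a time, and tissue was taken 2.5 h after reperfusion. In sham animals the same vessels were exposed without being tied, and naive animals had no surgery. NeuN-stained neurons were taken from frozen sections by laser capture, singly or in pools of 2 to 5 cells in RIPC animals and of up to 8 in the others, and 165 genes were measured in each sample by microfluidic RT-qPCR. The 3 RIPC animals are called animals 1, 2 and 3, and 62 sham and 81 naive samples serve for comparison.

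The DMV holds the cell bodies of parasympathetic neurons whose axons run in the vagus nerve on their own side to the heart and the gut. Most of these cells are cholinergic, and their firing is shaped by pacemaker and calcium channels and by receptors for many transmitters and peptides. RIPC is a brief interruption of blood flow in a limb that protects a distant organ such as the heart, and vagal motor neurons are known to take part in that protection.

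Each gene is given by its share and its level. The share is the percentage of kept samples of a side with a Ct for the gene, and a difference in share is in percentage points. The level is −ΔCt in cycles, that is, the Ct of the gene subtracted from the median Ct of 35 widely detected genes in the same sample, so that a higher level is more transcript. Levels are averaged over samples with a Ct only. Because 59.8% of the assay values in the RIPC columns were below detection, both quantities rest on few samples per gene. In pools, fewer cells that contain a transcript and less of it per cell cannot be told apart.

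The number of detected assays had no common direction between sides. Left samples had 43 to 115 detected assays with a median of 74.5, and right samples had 44 to 135 with a median of 73. In animal 1 the mean was 71.0 on the left (n = 6) and 69.8 on the right (n = 6). In animal 2 it was 77.0 (n = 12) and 92.8 (n = 6), and in animal 3 it was 77.8 (n = 6) and 75.4 (n = 7). The left minus right difference was therefore 1.17, −15.8 and 2.4 assays in the 3 animals, with a mean of −4.09 ± 10.2 (SD, n = 3 animals; exact two-sided sign-flip permutation test, p = 1). With 3 animals this test cannot give a p below 0.25.

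**Figure D1:**
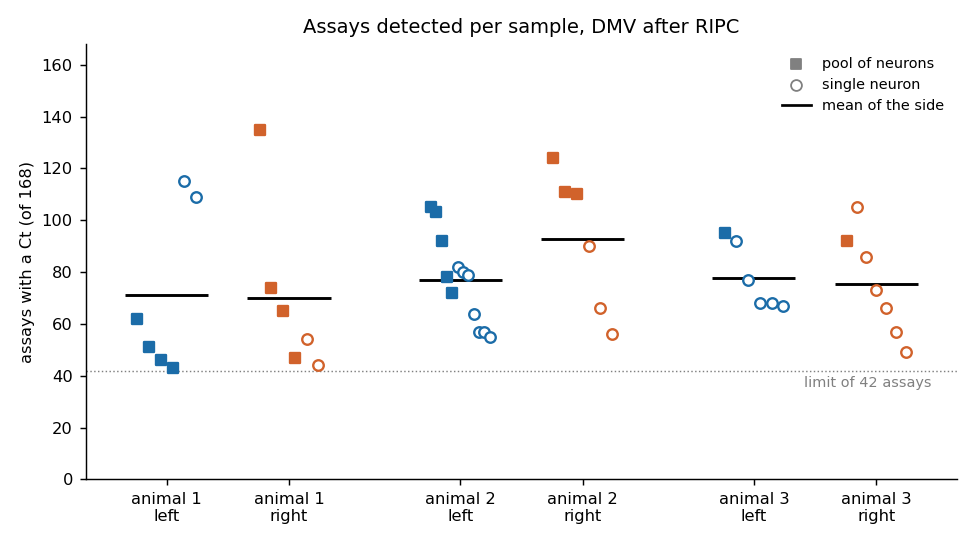
Number of assays with a Ct in each kept RIPC sample (y axis), by animal and side (x axis); filled squares are pools, open circles single neurons, black lines the mean of a side and the dotted line the limit of 42 assays. The 4 left pools of animal 1 lie at 43 to 62 assays while the 2 left single neurons of the same animal lie at 109 and 115.

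The side differences of pools and single neurons had opposite signs in animal 1 and the same sign in animals 2 and 3. In animal 1 the 4 left pools had a mean of 50.5 assays and the 4 right pools 80.2, whereas the 2 left single neurons had 109 and 115 and the 2 right ones 44 and 54. The right pools of animal 1 were themselves uneven, since 1 had 135 assays and the next 74. In animal 2 the left pools (n = 5) had a mean of 90.0 assays and the right pools (n = 3) 115, while single neurons had 67.7 (n = 7) and 70.7 (n = 3). The single pool on each side of animal 3 had 95 and 92 assays, and its single neurons had means of 74.4 (n = 5) and 72.7 (n = 6). Over animals 1 and 2 the mean difference was −27.4 assays in pools, and over all 3 animals it was 20.6 in single neurons (63, −2.95 and 1.73 in animals 1, 2 and 3). One single neuron from the right of animal 3, with 49 assays, had a sample title that begins like the titles of animal 2. It was kept where its labels place it, and leaving it out gave a mean difference of −5.56 assays.

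The neuronal identity of the samples was measured with genes whose products are typical of neurons. Camk2a, a kinase of excitatory and projection neurons, had a Ct in 24 of 24 left and 16 of 19 right samples. The sodium channel gene Scn2a had one in 24 and 18, and Rgs4, a regulator of G protein signalling, in 21 and 19. Every kept sample but 1 therefore had Scn2a. The left pools of animal 1 had Camk2a at −6.23, −9.06, −9.92 and −7.28 cycles. The other pools with a Ct for it lay between −3.57 and 2.10 cycles, and 2 of the 4 right pools of animal 1 had none. No marker of microglia, oligodendrocytes or endothelium was on the panel.

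Cholinergic genes were found on both sides. Chat, which makes acetylcholine, had a Ct in 2 of 6 left and 4 of 6 right samples of animal 1, in 10 of 12 and 5 of 6 of animal 2, and in 4 of 6 and 5 of 7 of animal 3. The 4 left pools of animal 1 were all without Chat, while both of its left single neurons had it. The share averaged 61.1% ± 25.5 for left and 73.8% ± 8.58 for right samples (SD over the 3 animals), a difference of −12.7 points (95% confidence interval −36.0 to 10.6). Without the left pools of animal 1 the difference was 9.52 points, so its sign rests on them. Ache, which breaks acetylcholine down, had mean shares of 75% ± 22 and 84.1% ± 1.37. Among single neurons Chat was detected in 10 of 14 on the left and 8 of 11 on the right (71.4%, Wilson 95% interval 45.4 to 88.3, and 72.7%, 43.4 to 90.3).

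The level of Chat did not separate the sides either. In animal 1 it was −0.14 and −1.69 on the left and 0.98, −0.63, 0.52 and 0.19 on the right. In animal 3 it was 0.73, −4.96, 2.73 and 1.43 on the left and −2.92, 0.85, −4.67, −1.74 and −1.52 on the right. In animal 2 the left ranged from −2.51 to 1.51 with a mean of 0.67 and the right from 0.71 to 2.48 with a mean of 1.69. The right was higher in animals 1 and 2 and the left in animal 3, with overlap in each animal, and the mean difference was −0.07 cycles (−1.58 to 1.43).

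Many single neurons carried markers of more than 1 transmitter. Gad1 or Gad2, the enzymes that make GABA, had a Ct in 11 of 14 left and 7 of 11 right single neurons, and together with Chat in 7 of 14 (50%, Wilson 95% interval 26.8 to 73.2) and 5 of 11 (45.5%, 21.3 to 72.0). Any Ct counted here, and some were late. Among these left neurons, a neuron of animal 2 had Gad2 at a Ct of 23.9 (level −11.3). Chat had a Ct of 18.7 in another and of 18.5 in a neuron of animal 3. On the right of animal 3 the Ct of Chat was 17.6, 17.0 and 16.9, and 11.4 in another neuron. Th, the first enzyme of catecholamine synthesis, was found in 7 of 14 and 6 of 11, and with Dbh, which makes noradrenaline, in 3 of 14 and 1 of 11. Gad1 differed between animals, being present in 7 of 7 right samples of animal 3 but in 1 of 6 right samples of animals 1 and 2 each. Its left minus right difference was 16.7, 0 and −50 points, which gave no common direction. Fos, an immediate early gene that rises with neuronal activity, had a Ct in 3 of 24 samples from the left and 6 of 19 from the right, and the mean difference was −15.1 points (−40.3 to 10.1). In pools Fos was present in 0 of 10 on the left and 4 of 8 on the right, and in single neurons in 3 of 14 and 2 of 11. The mean over animals was 28.9 points in single neurons, from 100, 0 and −13.3 in animals 1, 2 and 3, and 7.14 over all samples but the left pools of animal 1. The astrocyte gene Gfap was present in 19 of 24 left and 14 of 19 right samples, 13 of 14 and 9 of 11 among single neurons, so most samples of NeuN-stained neurons carried this transcript. Its source was not tested. The Wilson intervals cover counting error only.

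No gene differed between left and right after RIPC by the test over animals. By share, 129 genes detected in 10% to 95% of the samples were tested with limma on the left minus right differences of the animals, and 0 (0%) passed a Benjamini-Hochberg adjusted p of 0.05. Without adjustment 3 genes had a p under 0.05, 1 higher on the left and 2 on the right, and the smallest adjusted p was 0.983, for Cacna1d. By level, 84 genes with values on both sides of all 3 animals were tested, again with 0 (0%) called, 7 with an unadjusted p under 0.05 (2 higher on the left and 5 on the right) and a smallest adjusted p of 0.398, for Foxo3. Exact Mantel-Haenszel tests of detection, which count samples of 1 animal as if independent, called 0 genes, with 0 below an unadjusted p of 0.05 when stratified by animal and 1 when stratified by animal and sample type. The median half-width of the 95% interval was 23.3 points for a share and 1.09 cycles for a level. A further 5 genes (Actb, Cacna1e, Gapdh, Ldha and Scn2a) were detected in over 95% of the samples and 31 in under 10%, and these 36 were not tested by share.

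The side differences of the 3 animals had little in common. Across the 129 genes the difference in share in animal 1 correlated with that in animal 2 at r = −0.29 and with that in animal 3 at r = −0.03, and animals 2 and 3 at r = −0.07. Across the 84 genes the corresponding values for level were −0.20, −0.22 and 0.05. These are correlations across genes of the same samples, which are not independent of each other, and the samples of an animal share their yield. In animal 2, where right samples had more detected assays, 79 of the 129 genes had the larger share on the right, 26 on the left and 24 were equal, with a mean difference of −11.0 points. The mean was 1.29 points in animal 1 and 1.55 in animal 3. By sample type the mean difference over the genes tested was −20.0 points in pools of animals 1 and 2 and 15.6 points in single neurons of the 3 animals. With pools alone 24 of 130 genes had an unadjusted p under 0.05 and 0 were called (smallest adjusted p by limma 0.150), which rests on 2 animals and includes the left pools of low yield. The part of yield in the shares was not tested gene by gene.

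**Figure D2:**
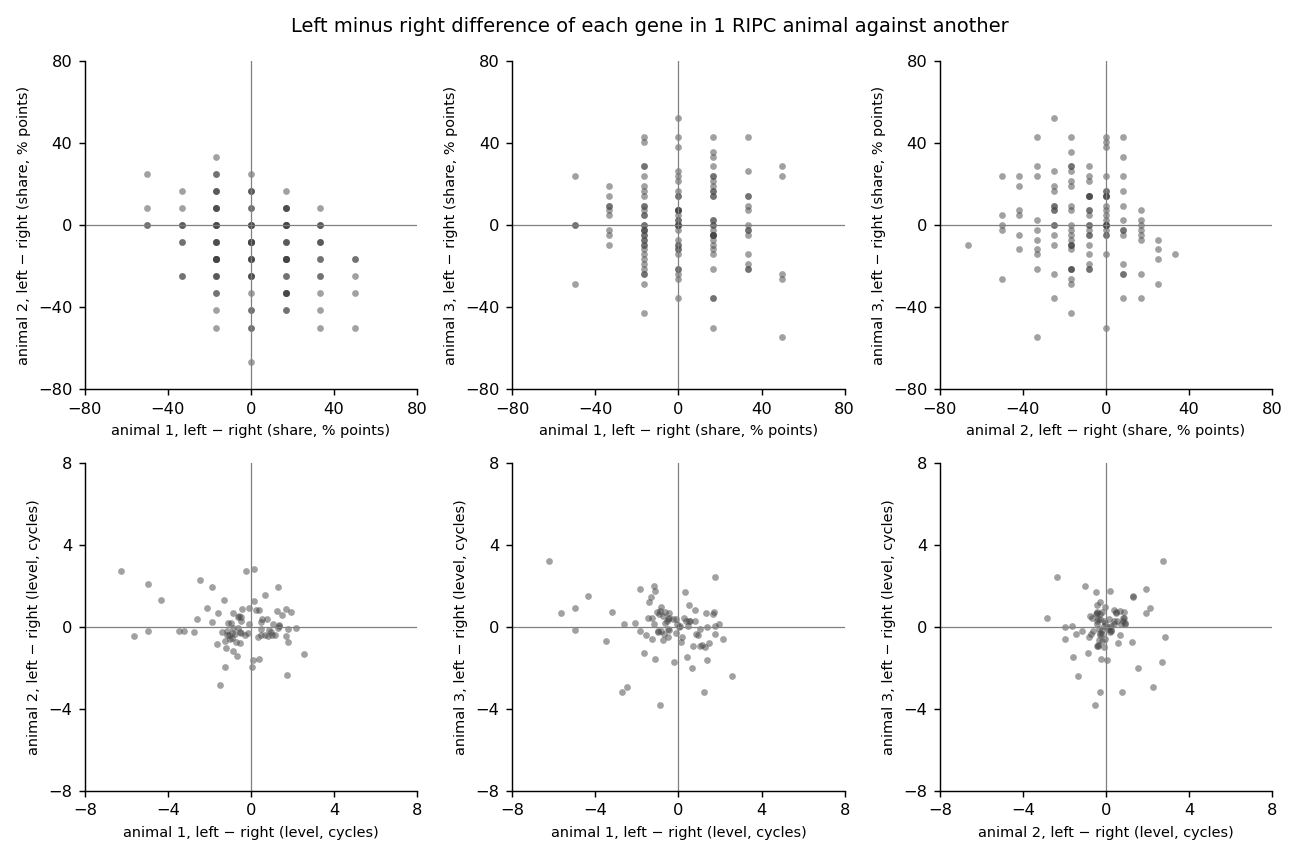
Left minus right difference of each gene in 1 RIPC animal (x axis) against another (y axis), in percentage points of share for 129 genes (top row) and in cycles of level for 84 genes (bottom row); each dot is a gene and grey lines mark no difference. The clouds show no common slope, with r from −0.29 to −0.03 for share and −0.22 to 0.05 for level.

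Some genes had the same direction in every animal. By share 3 of 129 genes (2.33%) were higher on the left and 10 (7.75%) higher on the right in all 3 animals. By level the counts were 9 of 84 (10.7%) and 14 (16.7%). None of these genes passed the adjusted test, and the values that follow are descriptions of the largest among them, ranked by the smallest of the 3 differences.

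The 3 genes detected more often on the left were a pair of L-type calcium channel genes and a heat-gated channel. Cacna1d, which forms a channel that supports pacemaking, had a Ct in 3 of 6 left and 1 of 6 right samples of animal 1, in 9 of 12 and 4 of 6 of animal 2, and in 6 of 6 and 4 of 7 of animal 3. Its mean share was 75% ± 25 for left and 46.8% ± 26.5 for right samples, a difference of 28.2 points (4.81 to 51.5; limma p = 0.0196, adjusted p = 0.983). The difference was 62.7 points in single neurons, where it was detected in 2 of 2, 5 of 7 and 5 of 5 on the left and in 0 of 2, 1 of 3 and 3 of 6 on the right. In pools of animals 1 and 2 the difference was −10.0 points. The capsaicin receptor gene Trpv1 had mean shares of 36.1% ± 12.7 and 16.7% ± 16.7, and Cacna1c 19.4% ± 12.7 and 5.56% ± 9.62, the latter from 4 left and 1 right samples in all.

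More genes were detected more often on the right. Hcn4, a pacemaker channel gene opened by hyperpolarization, had a Ct in 2 of 6 left and 3 of 6 right samples of animal 1, in 8 of 12 and 6 of 6 of animal 2, and in 3 of 6 and 5 of 7 of animal 3. The mean shares were 50% ± 16.7 and 73.8% ± 25.1, a difference of −23.8 points (−45.9 to −1.76; limma p = 0.0352, adjusted p = 0.983), and −1.59 points without the left pools of animal 1, none of which had Hcn4. Nppc, which encodes C-type natriuretic peptide, was found in 0 of 6, 2 of 12 and 0 of 6 left samples and in 1 of 6, 2 of 6 and 3 of 7 right samples. Its difference was −25.4 points (−50 to −0.77; limma p = 0.0437, adjusted p = 0.983), with and without those left pools. It was thus a rare transcript on both sides, and in single neurons its mean difference was −1.59 points.

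The remaining right-sided genes of this ranking included an enzyme and receptors. Ptgs2, the inducible cyclooxygenase, had mean shares of 5.56% ± 9.62 on the left and 26.2% ± 8.58 on the right. Its duplicate assays both gave a Ct in only 3 of the 6 RIPC samples in which either did, and their Ct differed with an SD of 1.71 cycles. In animal 2 Ptgs2 had a Ct in 0 of 12 left and 1 of 6 right samples, and that right sample was a neuron that had been run again. Npy1r, a receptor of neuropeptide Y, had 25% ± 8.33 and 42.1% ± 8.36. Npr3, the clearance receptor of natriuretic peptides, had 50% ± 16.7 and 64.3% ± 20.3. In single neurons the mean differences of Npy1r and Npr3 were 22.9 and 22.1 points. For Npr3 this came from 100 points in animal 1, with 2 neurons a side, against −23.8 and −10 in animals 2 and 3. The others of the 10 were Agtr1a, Chrm2, Map2, Ntrk2 and Oprm1, with mean differences between −17.1 and −9.92 points.

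**Figure D3:**
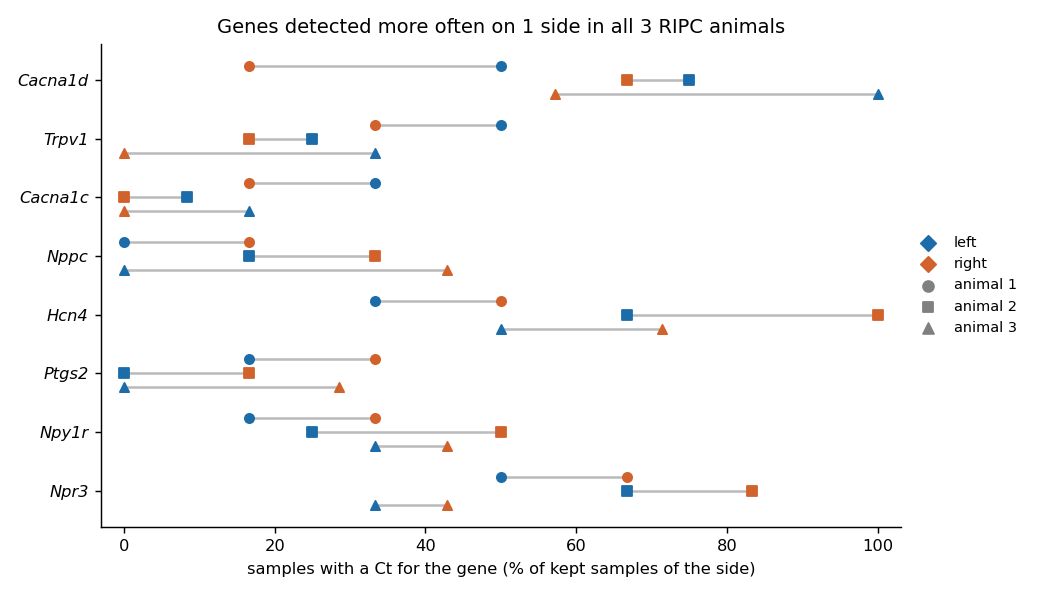
Percentage of kept samples with a Ct (x axis) on the left and the right of each RIPC animal, joined by a line, for the 8 genes with the same direction in all 3 animals that ranked highest (y axis). Left exceeds right in 3 genes and right exceeds left in 5, with gaps from 8.33 to 42.9 points.

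By level the most repeatable left-sided genes were Foxo3 and Scn1a. Foxo3, a forkhead transcription factor of stress and survival pathways, had levels of −0.65, 4.51, 3.25, −0.51 and −0.65 cycles in the left samples of animal 1 and −0.57, −0.68, −1.08 and 0.30 in the right ones. In animal 2 the left ranged from −0.92 to 1.66 with a median of 0.01 and the right held −0.80, −0.89, −2.52, 0.58 and 0.15. In animal 3 the left held 0.87, 0.28, 0.72, 2.42 and −0.63 and the right lay between −1.40 and 2.21, median −0.20. The sides overlapped in each animal, and the left mean of animal 1 was set by 2 pools. The left single neurons of animal 1 had a mean of −0.58 cycles, against −0.51 over its right samples, so its direction rests on the pools. The differences were 1.70, 0.86 and 0.70 cycles, with a mean of 1.08 (0.31 to 1.86; limma p = 0.0112, adjusted p = 0.398), and the mean was 0.49 without the left pools of animal 1.

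Scn1a, a voltage-gated sodium channel gene, differed by 1.32, 1.94 and 0.65 cycles, with a mean of 1.3 (0.32 to 2.28; limma adjusted p = 0.398). In animal 1 it rested on −1.40 and 3.11 on the left and −1.69 and 0.77 on the right. In animal 2 the left ranged from −0.82 to 3.44 and the right held −0.04, −0.50, −0.69, 0.31 and −5.97. In animal 3 the left ranged from −1.58 to 2.02 and the right from −1.70 to 1.56. Left and right samples overlapped in each animal, and in animal 2 a single right neuron at −5.97 made much of the gap. When samples needed 84 assays the mean difference of Scn1a was −0.01 cycles. The next left-sided genes were Hrh2, a histamine receptor (0.67 cycles), Cacna1h, a T-type calcium channel (0.49), and Mapk14, a stress-activated kinase (0.41), all with limma adjusted p of 0.80. In animal 1 the left single neurons had means of −0.59 for Hrh2 and −0.81 for Mapk14, against −0.31 and −0.80 over the right samples. The left-sided direction of Hrh2 and Mapk14 in animal 1 therefore rests on its left pools. The sign for Cacna1h turned with 84 assays (−0.53), in pools (−0.47) and without centring (−0.21).

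On the right the most repeatable gene by level was Kcnn4, a calcium-activated potassium channel. In animal 1 its left levels ranged from −1.69 to 0.90 with a median of −0.95, and its right levels were −2.40, 2.74, 1.81 and 1.45. In animal 2 the left ranged from −4.43 to −0.98 with a median of −2.90, and the right held −2.80, −2.05, −2.67, −0.79 and 0 within rounding. In animal 3 the left ranged from −6.71 to −1.74 and the right from −3.40 to −1.18. The right mean was higher in each animal, with differences of −1.65, −0.84 and −1.28 cycles, and the ranges of the sides overlapped in each animal. The left minus right difference was −1.26 cycles (−2.34 to −0.17; limma adjusted p = 0.398). Kcnn4 had a Ct in 21 of 24 samples on the left and 15 of 19 on the right, and with undetected samples entered at a level below detection the difference turned to 0.65 cycles.

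Other right-sided genes were a galanin receptor, a secreted protein and 2 channels. Galr1 differed by −1.27, −1.96 and −0.58 cycles, with a mean of −1.27 (−2.41 to −0.13; limma adjusted p = 0.398). In animal 2 its right samples held −0.35, 1.29, 0.74, 1.94 and 2.46, against a left range of −2.89 to 1.49 with a median of −0.31. In animal 1 the left held −7.30 in a pool and −2.01 and −1.10 in single neurons, and the right −0.33, −4.89 and −1.39. The left single neurons there had a mean of −1.55, against −2.20 over the right samples. The sign of Galr1 in animal 1 thus rests on that pool. Fstl1, a follistatin-like secreted protein, differed by −0.89, −0.54 and −3.83 cycles. The last of these came from left samples at −1.28 and −10.83, so 1 neuron set it. The other left sample lay above the right mean of −2.23 cycles, so the direction of Fstl1 in animal 3 rests on that neuron. The pacemaker channel genes Hcn2 and Hcn3 were each lower on the left in all 3 animals, with means of −0.61 and −0.83 cycles and limma adjusted p of 0.73 and 0.75. By share 3 of the 4 Hcn genes had a higher mean on the left (median 3.97 points), against 49 of all 129 genes, and Hcn4 had a lower one.

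Drd2, the dopamine receptor that inhibits the cells carrying it, had left minus right differences of −2.74, −0.27 and −3.21 cycles. In animal 1 its left levels were −8.49, −9.14 and 0.92 and its right levels −0.77, −2.40, −6.12 and −2.04. In animal 2 the left ranged from −7.86 to 1.93, median −2.57, and the right held −3.47, 0.87 and −4.01. In animal 3 the left held −6.54, 0.95, −0.70 and −6.07 and the right 2.05, −1.07, 0.63 and −1.15. In animals 1 and 3, 2 left samples each lay below all right samples of the animal and the rest within or above the right range, so the ranges overlapped. The animal means averaged −3.71 ± 1.64 for left and −1.64 ± 1.55 for right samples (SD over the 3 animals), a difference of −2.07 cycles (−3.77 to −0.37; limma adjusted p = 0.398). A Ct for Drd2 was present in 14 of 24 samples from the left and in 11 of 19 from the right. Gfap likewise differed by −1.14, −0.23 and −1.56 cycles (limma adjusted p = 0.56).

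**Figure D4:**
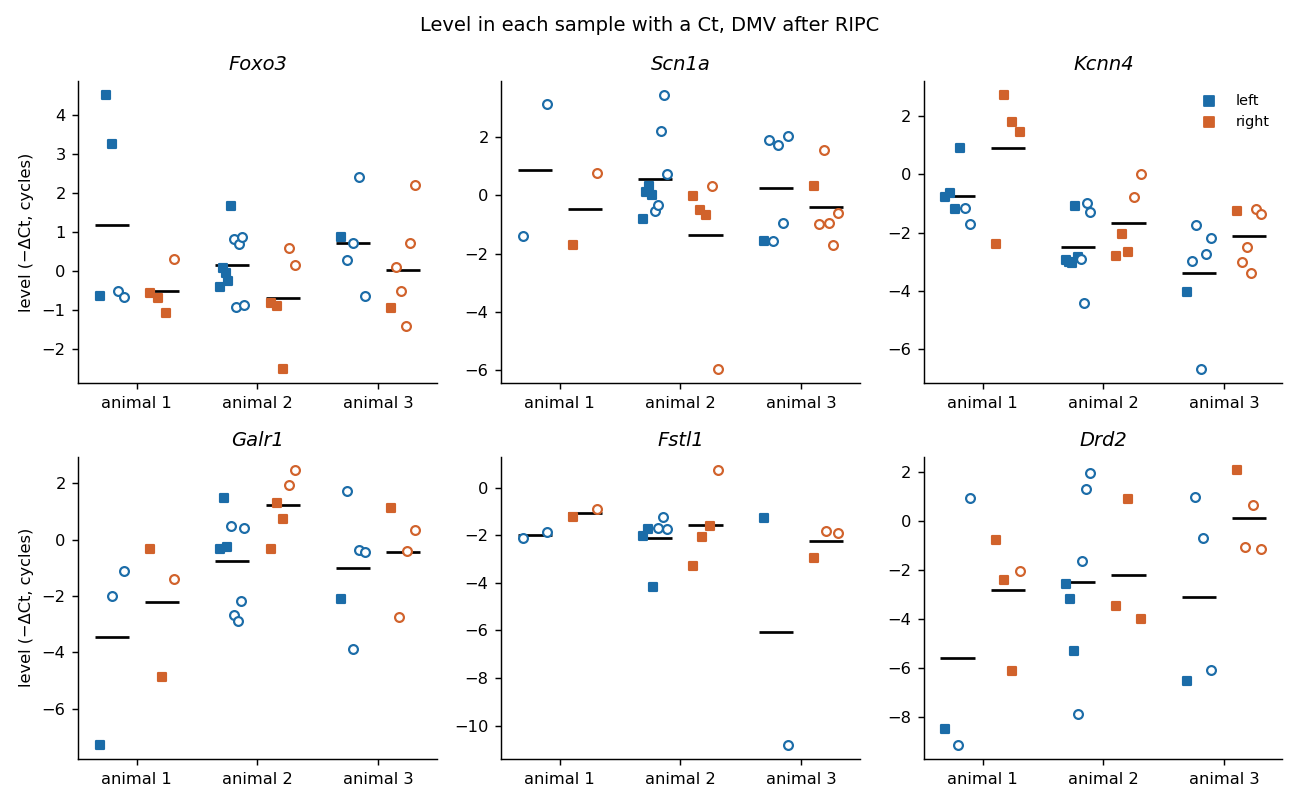
Level (−ΔCt, cycles, y axis) in each RIPC sample with a Ct for 6 genes, by animal (x axis), with left samples in blue and right samples in orange; squares are pools, open circles single neurons and black lines the mean of a side. Means differ in the same direction in all 3 animals for each gene, while the samples of both sides overlap.

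Receptor and channel families were described by their counts, beside all 129 genes tested by share, of which 49 had a higher mean on the left, 79 on the right and 1 was equal (median −2.78 points), and all 84 tested by level, of which 38 were higher on the left and 46 on the right (median −0.10 cycles). No member of any family was called by either measure. All 4 histamine receptor genes had a lower mean share on the left, with differences from −14.7 points for Hrh4 to −3.57 for Hrh2. This rests on the left pools of animal 1, without which Hrh2 was at 1.98 and Hrh3 at 9.52 points, and in single neurons these 2 were at 31.9 and 34.3 points. The latter came mostly from animal 1, at 100 points for both genes, against 19.0 and −23.3 for Hrh2 and 9.52 and −6.67 for Hrh3 in animals 2 and 3. The family's median was 16.7 points in animal 1 but −20.8 and −28.6 in animals 2 and 3. Hrh1 had a Ct in 4 of 6 left and 3 of 6 right samples of animal 1, in 2 of 12 and 3 of 6 of animal 2, and in 0 of 6 and 1 of 7 of animal 3. Of the natriuretic peptide and receptor genes, 4 of 6 could be tested, and all 4 had a lower mean share on the left, with a median of −13.5 points, although Npr3 was at 2.38 points without the left pools of animal 1 and at 22.1 in single neurons. Of 7 acetylcholine receptor genes tested, 5 had a lower mean share on the left, while by level 5 of 6 were higher there (median 0.25 cycles). Among 7 gut hormone and leptin receptor genes tested, 4 had a lower mean share on the left. Lepr, the leptin receptor gene, differed by 0, −25 and 52.4 points in the 3 animals.

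Of the serotonin receptor genes, 6 of 9 were higher on the left by mean share and a median of 4.37 points, but by animal the median was 16.7, −16.7 and 21.4 points. By level 2 of 5 were higher on the left, with a median of −0.04 cycles. The 7 calcium channel genes tested held both Cacna1d and Cacna1c on the left and 4 with a lower mean there, among them the T-type gene Cacna1g at −10.7 points (−35.0 to 13.6). The median by level was 0.23 cycles over 5 calcium channel genes, with 4 higher on the left. GABA-A receptor subunits had a median of −2.18 points by share over 6 genes and −0.50 cycles by level over 5, and adrenergic receptors of 0.40 points and −0.49 cycles over 4 genes each. Among the latter Adra1a differed by −3.48, −0.21 and −0.69 cycles (limma adjusted p = 0.40). The secreted peptides Cartpt and Cck had mean differences in share of −11.5 and −10.7 points, with the sign differing between animals. Cartpt was at 10.7 points without the left pools of animal 1.

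The side difference after RIPC was then set against the side difference in sham and naive animals, which asks whether RIPC itself was accompanied by an asymmetry. The same limma fit held 4 sham and 2 naive animals with at least 2 kept samples on each side. Against sham, 0 of 129 genes (0%) by share and 0 of 81 (0%) by level were called, with 4 and 3 genes below an unadjusted p of 0.05. Against naive, 0 of 129 (0%) and 0 of 81 (0%) were called, with 3 and 4 genes below it. These comparisons share the 3 RIPC animals.

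Npr3 and Nppc had the smallest p by share. The difference for Npr3 was −16.7, −16.7 and −9.52 points after RIPC and −4.17, 42.9, 37.5 and 10.0 points in the sham animals, so the groups did not overlap (RIPC minus sham −35.8 points, limma adjusted p = 0.828). Without the left pools of animal 1 its value in that animal was 33.3 points, the groups overlapped and the difference from sham was −19.2 points (limma adjusted p = 0.990). The naive animals, at −9.52 and −3.79 points, lay beside the RIPC animals. For Nppc the difference was −16.7, −16.7 and −42.9 points after RIPC, 57.1 and 11.7 in naive animals and −12.5, −28.6, 12.5 and 33.3 in sham animals (RIPC minus naive −59.8 points, limma adjusted p = 0.474, and −37.0 points, 0.998, without the naive animal at 57.1). The RIPC and naive animals did not overlap, and the range of the sham animals overlapped with both.

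Kcnn4 and Drd2 had the smallest p by level. Kcnn4 was 0.57, 0.73, −0.06 and 0.25 cycles in sham animals against −1.65, −0.84 and −1.28 after RIPC (RIPC minus sham −1.63 cycles, limma adjusted p = 0.855). The sham value of 0.73 came from left samples with a median of −1.80 cycles and right samples with a median of −2.16. The lowest of those 6 right samples was at −10.4 cycles, so 1 sample set much of that value. One naive animal was at −2.36 and the other at 0.28. Drd2 was 4.71 and 1.27 cycles in the naive animals, that is, higher on the left, and −2.74, −0.27 and −3.21 after RIPC. The sham animals were at 0.67, −1.05, −1.76 and −0.30, of which 3 lay within the RIPC range. The difference between RIPC and naive was −5.07 cycles (limma adjusted p = 0.153). It passed the threshold without animal 2 (limma adjusted p = 0.046), but not without animal 1 (0.479) or animal 3 (0.567). It also passed without centring of Ct (0.036) and when 3 detected samples per side were required (0.018). The naive value of 4.71 came from 3 right samples between −9.85 and 0.51 cycles, against 5 left samples between −2.45 and 2.31. The other naive animal had 17 left and 10 right samples with Drd2, with medians of 0.13 and −0.49 cycles and lowest values of −7.03 and −10.2. With that animal alone as naive the difference between RIPC and naive was −3.35 cycles. With the first alone it was −6.79.

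**Figure D5:**
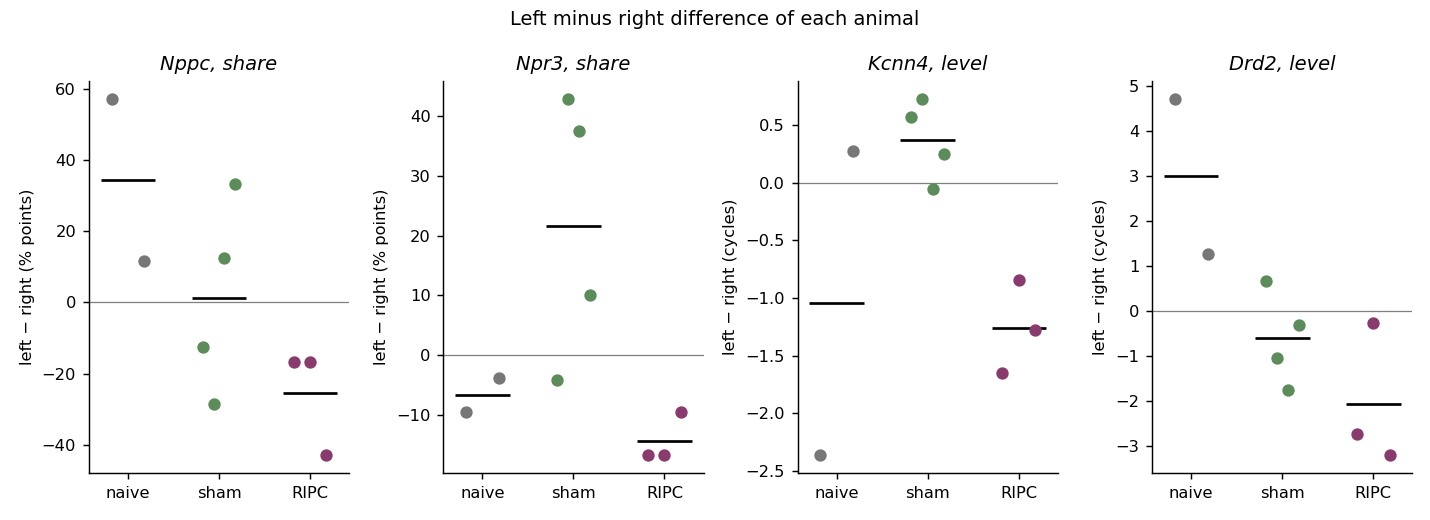
Left minus right difference of each animal (y axis) in share (percentage points, Nppc and Npr3) or level (cycles, Kcnn4 and Drd2) for 2 naive, 4 sham and 3 RIPC animals (x axis); dots are animals, black lines group means and the grey line no difference. All RIPC animals lie below 0 for the 4 genes, and for each gene their range overlaps with that of the naive or the sham group.

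Neither of the 2 main clusters of samples with alike profiles was more frequent on the same side in all 3 animals. Clustering of all 186 kept samples by 5 bins of each gene gave 6 clusters, numbered by size, of which clusters 1 and 2 held 121 and 42 samples of the series and 25 and 13 of the 43 RIPC samples. Cluster 1 held 14 left and 11 right RIPC samples and cluster 2 held 7 and 6. All 6 left samples of animal 1 were in cluster 2, along with 3 of its 6 right ones. In animal 2 cluster 1 held 10 of 12 left and 5 of 6 right samples, and in animal 3 it held 4 of 6 and 4 of 7. The left minus right difference for cluster 2 was 50, −8.33 and −28.6 points in animals 1, 2 and 3 (mean 4.37; exact two-sided sign-flip permutation test over 3 animals, p = 1). For cluster 1 it was −33.3, 0 and 9.52 points (mean −7.94, exact p = 1). Samples of cluster 2 had a mean of 64.6 detected assays in the series and those of cluster 1 had 87.0, and the part of yield in the clusters was not tested. The remaining 5 RIPC samples were in clusters 3 and 4.

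The precision of single samples can be read from repeat measurements. Duplicate assays of Htr1a, a serotonin receptor gene, both gave a Ct in 31 of the 33 RIPC samples in which either did, and differed with an SD of 0.155 cycles. Second runs existed for 1 left and 1 right sample of animal 2. In the right one 53 assays were detected in the first run and 60 in the second, 23 of them in both, with an SD of the difference of 3.92 cycles. In the left one the numbers were 36, 44 and 16, with an SD of 1.14 cycles. Detection was the same in 60.1% and 71.4% of the assays.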

How the data were processed

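The authors deposited raw threshold cycles (Ct), entered here as a score, of 168 assays in 218 columns, exported from a Biomark RT-qPCR instrument without normalization. Values ran from 4.94 to 27.0 cycles, and assays below detection had none. Neurons were captured by laser, lysed and preamplified. Which chip held which sample is not stated in the labels, and chip was not tested as a batch. No genome build applies, and no primer sequences were used.

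Repeat runs and duplicate assays were averaged, a gene counting as detected if either had a Ct. Kept samples had at least 42 detected assays, which is also their depth. Animals with 2 kept samples per side entered the fit, which left out 1 naive animal. Each gave 1 left minus right difference per gene, in share or in mean level over at least 2 detected samples per side. These were fitted with 3 group means in limma 3.58.1 (R 4.3.3), two-sided, with Benjamini-Hochberg adjustment over the genes of a comparison. Left and right of 1 animal are paired by the label of the animal. Where a control animal lacked a level, the fit used the others. Confidence intervals are the 95% intervals of that fit. Samples were clustered with 1 minus Pearson correlation and average linkage. The code was tested on simulated data.

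Genes named are up to 5 per side with the same direction in all 3 animals, ranked by the smallest difference, the gene with the smallest p of each comparison and a list of transmitter, receptor and marker genes. Hcn2, Adra1a, Chrna7 and the remaining genes with 1 direction were added after their values were seen. A gene that this rule also names is not reported here. The members and lists were chosen with earlier results of these data known. The 25 alternatives covered sample and gene filters, sample type, centring, scale, weights, undetected values, the unit of the test, the pairing and each RIPC animal left out, and 7 more were chosen after seeing the data.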

Additional observations from a re-analysis of the deposited data

Results flagged for a closer look

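Of 88 sets of 4 to 10 samples of 1 animal and side, 7 held a value far from the others by Dixon's test, which chance alone does in about 1 of 20 sets. In animal 1 a right pool had 135 detected assays, with the next at 74, and a right single neuron had an Hrh4 level of −8.63 cycles, with the next at −0.98. On the left of animal 2 a single neuron had Chat at −2.51, with the next at 0.38, and a pool had Fstl1 at −4.19, with the next at −2.02. On the right of animal 2 Cacna1g reached −1.58 in 1 sample, with the next at −4.64. Also on the right of animal 2 Camk2a was at −7.06 in 1 single neuron, with the next at −0.75, and Scn1a at −5.97, with the next at −0.69. The causes were not tested.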

How the results depend on the processing

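No gene was called under any alternative except Chrna7 and Drd2. For Drd2 the level difference between RIPC and naive gave 1 call without centring and with 3 detected samples per side, and 0 to 1 when 1 RIPC animal was left out. With 1 naive animal left out, which assumes that the lone animal varies like the others, 0 genes were called. In single neurons 11 genes could be tested by level against sham and 1 was called, Chrna7 (limma adjusted p = 0.0119), at −0.44, −3.43 and −0.36 cycles in 3 RIPC and −0.47 and 6.23 in 2 sham animals, whose ranges overlapped. The difference in detected assays was −27.4 in pools, 20.6 in single neurons, 9.58 without the left pools of animal 1 and −7.33 to 1.79 with 1 animal left out. Without the pairing of left and right (no replicate block) 0 genes were called by share and 0 by level, and the block changed no other call. Of the named values, 314 of 345 by share and 322 of 352 by level kept their direction.

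The differences in share that changed sign were, in single neurons, Ache 26.7, Cacna1g 18.4, Cartpt 11, Fos 28.9, Gad1 29.5, Gad2 26, Hrh2 31.9, Hrh3 34.3, Npr3 22.1, Npy1r 22.9 and Th 18.4 points. They were −10.0 for Cacna1d and −10.0 for Gfap in pools, and 16.7 for Th with 84 assays. Without the left pools of animal 1, chosen after seeing the data as were the control animals left out, they were Ache 7.54, Cartpt 10.7, Chat 9.52, Fos 7.14, Gad1 11.1, Gad2 10.3, Hrh2 1.98, Hrh3 9.52, Npr3 2.38 and Th 12.3. With 1 animal left out the range was −17.9 to 2.98 for Ache, −25.0 to 8.33 for Gad1, −17.9 to 8.33 for Gad2, −23.8 to 1.19 for Hrh1, −13.7 to 12.5 for Hrh2, −12.5 to 26.2 for Lepr and −23.2 to 5.95 for Th.

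By level they were, in cycles, Ache −0.12, Cacna1h −0.53 and Scn1a −0.0060 with 84 assays, Cacna1h −0.47 and Hrh4 0.29 in pools, Camk2a 0.015 in single neurons and 0.088 without the left pools of animal 1, and Chat 0.11 with first runs alone. Centred on all detected assays Chat was 0.065 and Hrh3 −0.028, and without centring Cacna1h was −0.21, Chat 0.32 and Hrh4 0.18. With undetected values set 1 cycle above the highest Ct, Ache was −0.93, Camk2a 0.060, Cartpt −1.53, Hrh2 −0.25, Hrh3 −1.90 and Kcnn4 0.65. Hrh3 was −0.58 in limma over samples, with or without detected assays as a covariate. With 1 animal left out the range was −0.028 to 0.90 for Ache, −0.31 to 0.055 for Cacna1g, −0.010 to 0.66 for Cartpt, −1.10 to 0.48 for Chat, −1.20 to 1.00 for Gad2, −0.26 to 0.34 for Hrh3 and −1.86 to 0.61 for Hrh4. The causes were not tested. The number of animals, 3, limits the precision, as the intervals given above show.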
